A study of Mus musculus with 9 samples.

Results

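The balance between kappa and lambda light chains was examined in splenic B cells through 7 genes: the kappa constant gene Igkc, the lambda constant genes Iglc1, Iglc2 and Iglc3, and the lambda variable segments Iglv1, Iglv2 and Iglv3. They are set by gene name with no threshold on their values, and all 7 were found among the 22174 genes of the authors' expression table on the reference with human sequences. For each mouse, reads of Igkc were set against the summed reads of the lambda constant genes. Summed reads of the kappa variable (Igkv) segments, 100 genes, were set against those of the lambda variable segments in the same way.

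Each B cell makes an antibody from a heavy chain and a light chain, and the light chain is either kappa or lambda. A light chain gene is assembled by joining a variable (V) segment to a joining (J) segment, and splicing then connects the joined exon to a constant (C) exon. Kappa is usually rearranged before lambda, and most mouse B cells carry kappa. The mouse lambda locus is small: Iglv1 is usually joined to the J segments beside Iglc3 and Iglc1, whereas Iglv2 and Iglv3 are usually joined to the J segment beside Iglc2. A B-cell clone passes its rearranged light chain gene on to its progeny, so the light chain of a leukemia marks the cell from which it grew.

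All lambda genes lie on the minus strand of chromosome 16 of genome build GRCm38. Iglv2 (chr16:19260401-19260859) and Iglv3 (chr16:19241207-19241690) are followed by Iglc2 (chr16:19198396-19200351), then Iglv1 (chr16:19085017-19085500), Iglc3 (chr16:19065230-19065681) and Iglc1 (chr16:19061618-19062071). Igkc lies on the plus strand of chromosome 6 (chr6:70726435-70726966). Several of these genes are close copies of each other, which limits how reads can be told apart. The coding sequences of Iglc2 and Iglc3 were identical at 303 of 314 aligned bases (96.5%), and those of Iglv1 and Iglv2 at 340 of 351 (96.9%). By contrast, Iglc1 and Iglc2 shared 73.9% of aligned positions, and Iglv1 and Iglv3 shared 54.3%. The sequences printed here, from the GENCODE M21 transcripts, show 150 bases near the start of each lambda constant exon, aligned to each other; capitals mark where Iglc2 and Iglc3 differ from each other and, in Iglc1, where it differs from both. They cover chr16:19198701-19198850 (Iglc2), chr16:19065530-19065679 (Iglc3) and chr16:19061920-19062069 (Iglc1).
Iglc2: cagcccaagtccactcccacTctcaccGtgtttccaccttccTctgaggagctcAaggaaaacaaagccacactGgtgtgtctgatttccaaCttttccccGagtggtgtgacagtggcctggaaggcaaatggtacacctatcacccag
Iglc3: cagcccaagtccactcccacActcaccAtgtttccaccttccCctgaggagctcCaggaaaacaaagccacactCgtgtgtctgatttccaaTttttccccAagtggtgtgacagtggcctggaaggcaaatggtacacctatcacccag
Iglc1: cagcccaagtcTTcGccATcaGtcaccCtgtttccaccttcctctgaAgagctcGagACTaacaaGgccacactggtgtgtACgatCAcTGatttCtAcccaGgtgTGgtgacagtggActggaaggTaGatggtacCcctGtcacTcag

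Over these 150 bases Iglc2 and Iglc3 differed at 7 positions, and Iglc1 differed from both at 30. The last 150 coding bases of Iglv1 (chr16:19085017-19085166) and Iglv2 (chr16:19260401-19260550) are shown for the same reason, with their 5 differing bases in capitals.
Iglv1: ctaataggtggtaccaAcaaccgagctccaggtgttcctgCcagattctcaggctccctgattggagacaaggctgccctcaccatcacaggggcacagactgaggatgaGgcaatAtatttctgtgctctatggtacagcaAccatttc
Iglv2: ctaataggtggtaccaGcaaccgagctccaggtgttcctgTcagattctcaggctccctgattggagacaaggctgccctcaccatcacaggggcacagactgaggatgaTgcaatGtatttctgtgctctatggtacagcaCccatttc

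Of all 31-base words in each coding sequence, 67.7% of those of Iglc2, 44.4% of Iglc3, and 58.6% of Iglv1 and of Iglv2 occurred in no other gene of the annotation, compared with 99.7% for Iglc1 and all of those of Igkc and Iglv3. Estimates for Iglc2 against Iglc3, and for Iglv1 against Iglv2, therefore rest on fewer distinguishing reads than those for Igkc, Iglc1 and Iglv3.

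Libraries came from 9 mice of the C57/BL6NTac strain, 1 library per mouse and 3 mice per group. The Eµ-MTCP1 mice carry human MTCP1 driven in B cells by a VH promoter and the IgH Eµ enhancer and derive from 1 founder line (Z36), the Eµ-TCL1 mice carry the TCL1 transgene, and the wildtype mice carry no transgene. According to the methods, transgenic mice had significant disease burden, mice were age-matched, and males and females were used in equal ratio; exact ages are not given in the sources used here. The 6 transgenic libraries are called leukemias here. B cells were enriched from spleens with a kit that removes other cells, and mice are called 1, 2 and 3 within each group only to tell them apart. About 6464090 to 8053020 reads per library were assigned on the reference that also holds human sequences, and wildtype mouse 2 was sequenced on another lane than the other 8 libraries. Levels are given as CPM, read counts relative to library sizes scaled by the TMM method of edgeR. Of the B-cell markers, Cd79a ranged from 2426 to 4080 CPM over the 9 libraries, Cd79b from 1601 to 2897 and Ms4a1 from 367 to 781. T-cell markers summed to 3.69 to 60.9 CPM, myeloid markers to 142 to 1651, NK markers to 0 to 8.75, erythroid markers to 13.6 to 207 and platelet markers to at most 0.302. In bulk RNA, fewer cells with a given light chain and less light chain RNA per cell cannot be told apart.

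Kappa RNA spanned a wider range in leukemias than in wildtype mice. Igkc, which encodes the constant region of every kappa chain, was measured at 19038, 10455 and 11193 CPM in wildtype mice 1, 2 and 3. In Eµ-MTCP1 mice it was at 10387, 54369 and 23119 CPM, and in Eµ-TCL1 mice at 19713, 5556 and 24900 CPM. Of the 6 leukemias, 4 lay above the highest wildtype mouse and 2 below the lowest, so the groups overlapped. The log2 fold change was 1.11 ± 0.63 (SE) in Eµ-MTCP1 and 0.30 ± 0.62 in Eµ-TCL1 relative to wildtype, and neither passed (edgeR adjusted p = 0.302 and 0.807). Without Eµ-MTCP1 mouse 2 the Eµ-MTCP1 value was 0.27. The Eµ-TCL1 value was -0.10 without Eµ-TCL1 mouse 3, 0.17 without mouse 1 and 0.70 without mouse 2, and leaving out wildtype mouse 1, 2 or 3 gave 0.63, 0.12 or 0.17. The markers of plasma cells, which secrete antibody, summed to 2053, 1269 and 1247 CPM in wildtype mice, 1172, 4425 and 3490 CPM in Eµ-MTCP1 mice, and 1870, 905 and 3336 CPM in Eµ-TCL1 mice. The sum was highest and lowest in the same mice as Igkc, but not all of the 8 markers followed it. In Eµ-TCL1 mouse 2, where Igkc was lowest, Jchain (31.5 CPM), Sdc1 (2.70), Tnfrsf17 (1.10) and Xbp1 (25.4) were below every wildtype mouse, whereas Mzb1 (486), Prdm1 (41.1), Txndc5 (293) and Derl3 (24.7) were above every wildtype mouse. Mzb1 and Prdm1 were above wildtype in all 6 leukemias, at 486 to 1786 and 28.5 to 123 CPM, compared with 279 to 476 and 12.1 to 24.4 CPM in wildtype mice. The part of these markers in the Igkc level was not tested.

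Lambda constant genes overlapped between leukemias and wildtype mice, and none of the 3 passed the test. Iglc1, the constant gene of lambda 1 chains, was at 1158, 785 and 701 CPM in wildtype mice, 395, 1123 and 909 CPM in Eµ-MTCP1 mice, and 545, 707 and 327 CPM in Eµ-TCL1 mice. It lay below the lowest wildtype value in 3 of 6 leukemias, with log2 fold changes of -0.12 ± 0.40 (SE) in Eµ-MTCP1 and -0.74 ± 0.40 in Eµ-TCL1 (edgeR adjusted p = 0.872 and 0.283). The Eµ-MTCP1 value of Iglc1 turned to 0.18 without Eµ-MTCP1 mouse 1 and to 0.12 without wildtype mouse 1, and was -0.47 without Eµ-MTCP1 mouse 2. That of Eµ-TCL1 was -0.49 without Eµ-TCL1 mouse 3. Iglc2, the constant gene of lambda 2 chains, was at 1737, 1125 and 1274 CPM in wildtype mice, 1145, 1776 and 1236 CPM in Eµ-MTCP1 mice, and 1874, 1688 and 1295 CPM in Eµ-TCL1 mice. No leukemia lay below the lowest wildtype mouse, and the log2 fold changes were 0.01 ± 0.26 and 0.23 ± 0.26 (edgeR adjusted p = 0.991 and 0.633). For Iglc2 in Eµ-MTCP1 the sign of this difference turned with the scaling and when single libraries were left out. In Eµ-TCL1 the Iglc2 value was 0.077 without wildtype mouse 2, 0.11 without Eµ-TCL1 mouse 1, 0.37 without Eµ-TCL1 mouse 3, 0.43 without wildtype mouse 1 and 0.10 with library size alone. Iglc3, the constant gene of lambda 3 chains, was at 1019, 667 and 719 CPM in wildtype mice, 729, 1125 and 1258 CPM in Eµ-MTCP1 mice, and 1305, 1707 and 899 CPM in Eµ-TCL1 mice. It lay above the highest wildtype mouse in 4 of 6 leukemias, with log2 fold changes of 0.37 ± 0.30 and 0.70 ± 0.30 (edgeR adjusted p = 0.476 and 0.181). The Eµ-MTCP1 value of Iglc3 was 0.21 without Eµ-MTCP1 mouse 3, 0.23 without wildtype mouse 2, 0.58 without wildtype mouse 1 and 0.16 with library size alone, and the Eµ-TCL1 value was 0.44 without Eµ-TCL1 mouse 2.

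Of the lambda variable segments, Iglv2 fell in both leukemias and Iglv3 in Eµ-TCL1, whereas Iglv1 did not pass. Iglv2, one of the variable segments usually joined beside Iglc2, was at 469, 244 and 420 CPM in wildtype mice. It was at 0.495, 32.8 and 5.08 CPM in Eµ-MTCP1 mice and at 1.40, 2.94 and 4.84 CPM in Eµ-TCL1 mice. All 6 leukemias lay below all 3 wildtype mice, and the lowest of them, Eµ-MTCP1 mouse 1, held 3 Iglv2 reads in its library. Iglv2 fell by 4.87 ± 0.99 (SE) on the log2 scale in Eµ-MTCP1 and fell by 6.94 ± 1.11 in Eµ-TCL1 relative to wildtype (edgeR adjusted p = 0.0124 and 0.00355). Without Eµ-MTCP1 mouse 3 the Eµ-MTCP1 difference was -4.49 (edgeR adjusted p = 0.0559).

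Iglv3, the most distant lambda variable segment in sequence, was at 156, 195 and 141 CPM in wildtype mice, 13.7, 72.4 and 74.9 CPM in Eµ-MTCP1 mice, and 42.4, 29.7 and 42.0 CPM in Eµ-TCL1 mice. Again all 6 leukemias lay below all wildtype mice. Iglv3 fell by 2.11 ± 0.49 (SE) on the log2 scale in Eµ-TCL1 (edgeR adjusted p = 0.0242), a call that was lost without any 1 of the 6 libraries compared, at adjusted p-values of 0.0547 to 0.0749. In Eµ-MTCP1 its log2 fold change was -1.61 ± 0.49 and missed the threshold (edgeR adjusted p = 0.0657). With both leukemias together against wildtype, Iglv2 fell by 5.90 ± 0.78 and Iglv3 fell by 1.86 ± 0.40 (edgeR adjusted p = 0.000787 and 0.0121). Without wildtype mouse 2 the Iglv3 difference was -1.75 (edgeR adjusted p = 0.0511).

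Iglv1, usually joined beside Iglc3 or Iglc1, behaved differently from mouse to mouse. It was at 1047, 787 and 862 CPM in wildtype mice, 42.1, 926 and 198 CPM in Eµ-MTCP1 mice, and 58.6, 1177 and 272 CPM in Eµ-TCL1 mice. Eµ-TCL1 mouse 2 exceeded every wildtype mouse and Eµ-MTCP1 mouse 2 lay within their range, whereas the other 4 leukemias were below it. The log2 fold changes of -1.21 ± 1.05 (SE) in Eµ-MTCP1 and -0.84 ± 1.05 in Eµ-TCL1 were about as large as their standard errors (edgeR adjusted p = 0.509 and 0.67). Their size rested on single libraries. The Eµ-MTCP1 value was -2.94 without Eµ-MTCP1 mouse 2, -0.70 without Eµ-MTCP1 mouse 1, -0.66 from the deposited gene counts and -2.03 by limma on the authors' log2 values. The Eµ-TCL1 value was -2.46 without Eµ-TCL1 mouse 2, -0.31 without mouse 1, -0.54 without mouse 3 and -1.66 by limma. Iglv1 was not called in any of these alternatives.

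**Figure D1:**
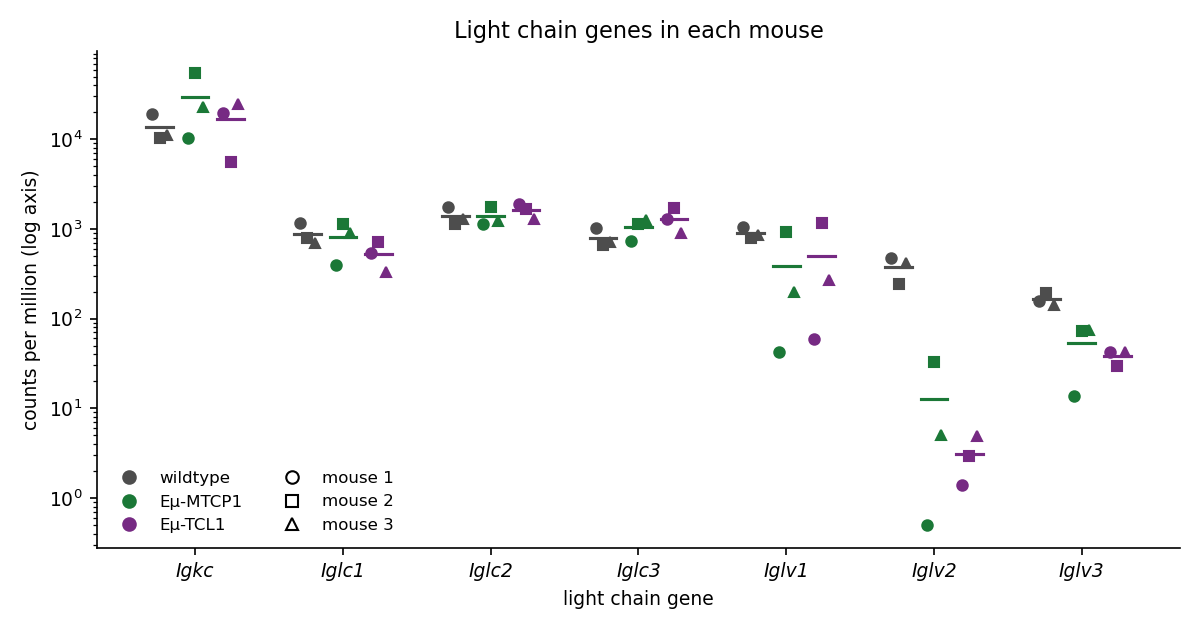
Level of each of the 7 light chain genes (log axis, CPM) in each mouse, with wildtype in grey, Eµ-MTCP1 in green and Eµ-TCL1 in purple; horizontal bars are group means and symbols tell the 3 mice of a group apart. All 6 leukemias lie below all wildtype mice for Iglv2 and Iglv3, while Iglc1, Iglc2 and Iglc3 overlap between groups.

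Of the 7 genes, 1 was called in Eµ-MTCP1 against wildtype (Iglv2), 2 in Eµ-TCL1 against wildtype (Iglv2 and Iglv3) and the same 2 in both leukemias together, each of them lower in leukemia. Among all 11165 genes tested, 9.48% were called in Eµ-MTCP1 against wildtype (3.99% lower), 9.2% in Eµ-TCL1 against wildtype (4.13% lower) and 13.1% with both leukemias together (6.16% lower). The comparisons with wildtype share the same 3 wildtype mice. Between Eµ-TCL1 and Eµ-MTCP1, edgeR called 0 of the 7 genes, with 0 at an unadjusted p under 0.05, and 0.0448% of all genes; DESeq2 and limma on the authors' log2 values also called 0 of the 7. The largest of these differences was that of Iglv2, -2.07 ± 0.98 (SE) on the log2 scale (edgeR adjusted p = 0.787), and without Eµ-MTCP1 mouse 2 it was 0.13.

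**Figure D2:**
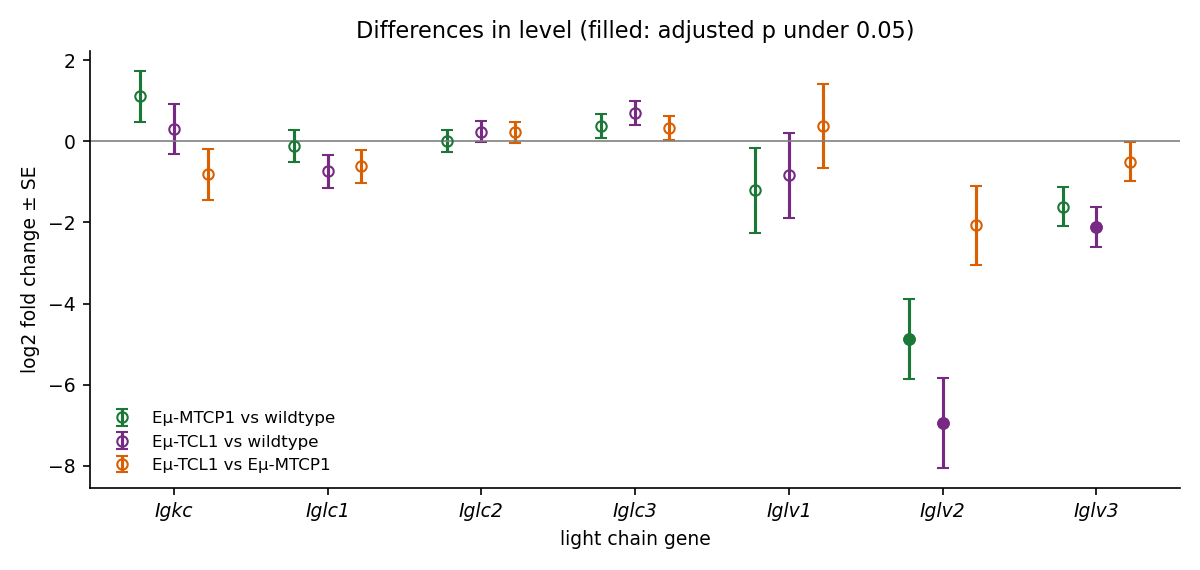
Log2 fold change of the 7 genes, with bars of 1 standard error, for Eµ-MTCP1 against wildtype (green), Eµ-TCL1 against wildtype (purple) and Eµ-TCL1 against Eµ-MTCP1 (orange); filled points have an edgeR adjusted p under 0.05. Filled points stand at Iglv2 in both comparisons with wildtype (-4.87 and -6.94) and at Iglv3 in Eµ-TCL1 (-2.11).

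The ratio of kappa to lambda reads overlapped with wildtype over the constant genes, and lay above wildtype in 5 of 6 leukemias over the variable segments. Over the constant genes, 4.87, 4.06 and 4.16 Igkc reads were present per lambda constant read in wildtype mice, or 4.36 ± 0.44 (SD, n = 3). Eµ-MTCP1 mice had ratios of 4.58, 13.5 and 6.79, and Eµ-TCL1 mice had 5.29, 1.35 and 9.88. Eµ-TCL1 mouse 2 was the only leukemia under the wildtype range, and Eµ-MTCP1 mouse 1 lay inside it. Lambda accounted for 42.5% of its constant reads in Eµ-TCL1 mouse 2 (95% Wilson interval 42.1 to 42.8, which covers counting error only), compared with 17.05 to 19.78% in wildtype mice. On the log2 scale the ratio differed from wildtype by 0.79 in Eµ-MTCP1 and by -0.07 in Eµ-TCL1, and by 0.36 with both together (two-sided exact permutation p = 0.2, 1 and 0.571). Without Eµ-TCL1 mouse 2 the Eµ-TCL1 difference became 0.74 and that of both together 0.77, and without Eµ-TCL1 mouse 3 they became -0.70 and 0.19. Without Eµ-MTCP1 mouse 2 the Eµ-MTCP1 difference became 0.36 and that of both together 0.10. Over all reads of each locus the differences were 1.16 in Eµ-MTCP1, without overlap with wildtype, 0.25 in Eµ-TCL1 and 0.70 with both together (exact permutation p = 0.1, 0.9 and 0.381). With 3 mice against 3 this test cannot go below 0.1, and with 6 against 3 it cannot go below 0.0238. After adjustment over the 4 comparisons of a measure the smallest possible value is 0.0952, so no ratio here could pass an adjusted threshold of 0.05. These p-values come from all divisions of these mice into groups and do not measure the spread between mice.

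Over the variable segments, the ratio was 7.17, 6.19 and 5.87 kappa reads per lambda read in wildtype mice. It was 109, 35.8 and 61.6 in Eµ-MTCP1 mice, all above every wildtype mouse, and 126, 3.27 and 43.8 in Eµ-TCL1 mice. Thus 5 of 6 leukemias exceeded the wildtype range by several-fold, and Eµ-TCL1 mouse 2 lay below it. The log2 ratio was 2.67 ± 0.15 (SD, n = 3) in wildtype mice, compared with 5.96 ± 0.80 for Eµ-MTCP1 and 4.71 ± 2.71 for Eµ-TCL1. The differences from wildtype were 3.28 and 2.04 (exact permutation p = 0.1 and 0.4), and with both leukemias together 2.66 (exact permutation p = 0.0952, adjusted p = 0.2). Without Eµ-TCL1 mouse 2 the last difference was 3.39 (exact permutation p = 0.0357, adjusted p = 0.143). The Eµ-TCL1 difference was 3.54 without Eµ-TCL1 mouse 2 and 0.91 without Eµ-TCL1 mouse 1.

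**Figure D3:**
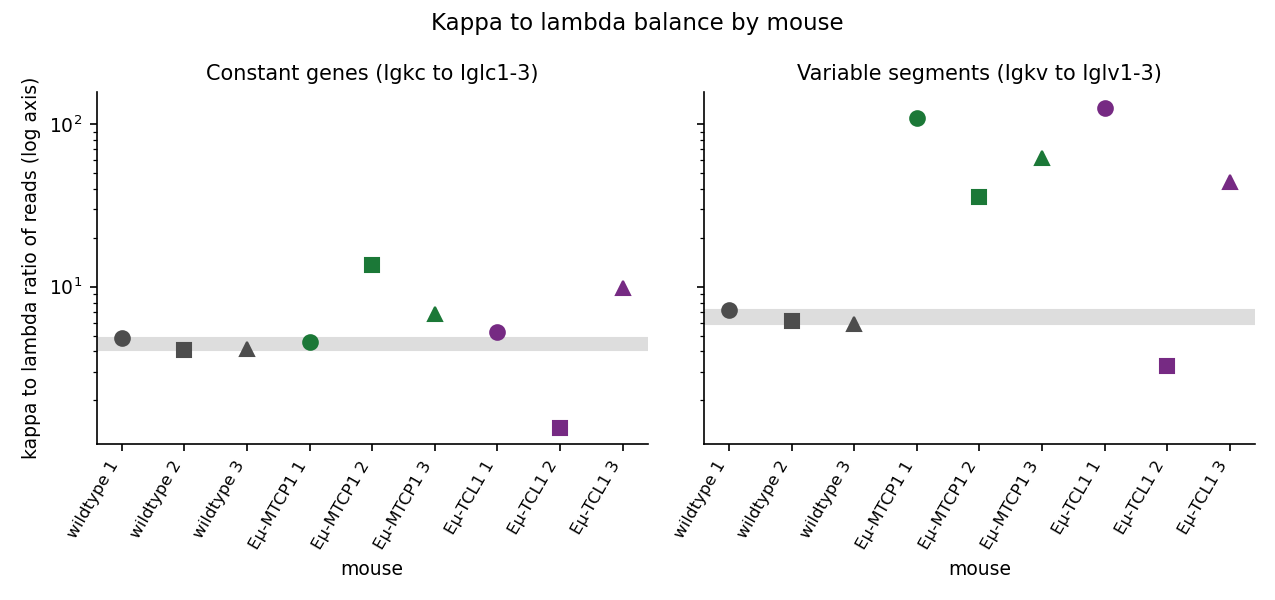
Ratio of kappa to lambda reads (log axis) in each mouse, for the constant genes on the left and the variable segments on the right; the grey band spans the 3 wildtype mice. On the left the leukemias lie on both sides of the band, between 1.35 and 13.5; on the right 5 of 6 lie between 35.8 and 126, above the band of 5.87 to 7.17.

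Setting the constant against the variable reads of each locus, a measure added after the values had been seen, showed where the ratios part. Wildtype mice had 25928, 23773 and 21766 lambda constant reads and 11083, 11307 and 11500 lambda variable reads, or 2.34, 2.10 and 1.89 constant reads per variable read. Eµ-MTCP1 mice had 13751, 28358 and 20766 lambda constant reads but 341, 7266 and 1695 lambda variable reads, which gave 40.3, 3.90 and 12.3. Eµ-TCL1 mice had 26622, 33449 and 18245 lambda constant reads and 732, 9864 and 2310 lambda variable reads, which gave 36.4, 3.39 and 7.90. All 6 leukemias exceeded all wildtype mice. The log2 ratio was higher than in wildtype by 2.56 in Eµ-MTCP1, by 2.24 in Eµ-TCL1 (1.30 without Eµ-TCL1 mouse 1) and by 2.40 with both together. No test is given for a measure chosen after its values were seen. In these 3 comparisons the groups also did not overlap on the standard mouse reference, in the deposited gene counts or by TPM. Leaving out libraries cannot bring separate groups to overlap, so those alternatives are no further check.

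At the kappa locus the groups overlapped over reads. Constant reads per variable read were 1.59, 1.38 and 1.34 in wildtype mice, 1.69, 1.47 and 1.35 in Eµ-MTCP1 mice and, for Eµ-TCL1 mice, 1.53, 1.41 and 1.78. The log2 ratio differed from wildtype by 0.07 in Eµ-MTCP1 and by 0.13 in Eµ-TCL1, within the spread between mice, and likewise has no test. By TPM the kappa ratio was 2.02, 1.83 and 2.03 in Eµ-TCL1 mice and 1.73, 1.51 and 1.58 in wildtype mice, without overlap and with a log2 difference of 0.29. Without wildtype mouse 1 the read-based values of Eµ-TCL1 did not overlap wildtype either, at a difference of 0.20. As TPM, which accounts for transcript length, Iglc2 was at 5170 to 6175 in wildtype mice and Iglv2 at 781 to 1329. In leukemias the TPM of Iglc2 was 3718 to 6432, and that of Iglv2 was 1.13 to 74.1.

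**Figure D4:**
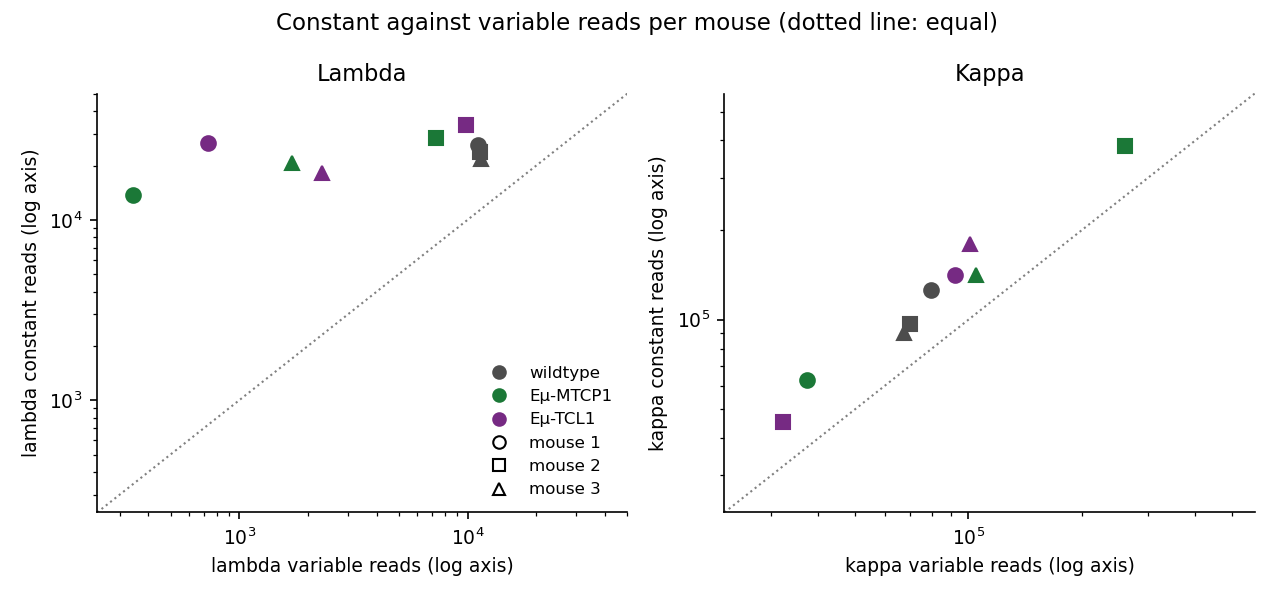
Constant reads against variable reads of each mouse (both axes log) for lambda on the left and kappa on the right; the dotted line marks equal numbers, colors are groups and symbols are mice. The 6 leukemias spread from 341 to 9864 lambda variable reads at 13751 to 33449 lambda constant reads, whereas kappa has 1.34 to 1.78 constant reads per variable read in every mouse.

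The reference contains no joined V-J-C sequences, and 1 annotated Iglc2 transcript begins upstream of an unjoined J segment. Its first exon (chr16:19200198-19200351, minus strand, annotated as UTR) holds 116 bases that lie before Iglj2 and then the 38 bases of Iglj2, and it is spliced over 1345 bases to the constant exon. When a variable segment is joined to Iglj2, the bases before Iglj2 are removed from the gene. The 30 bases across the edge of Iglj2 (chr16:19200221-19200250) are given because they separate the 2 forms, with the part inside Iglj2 in capitals.
Iglj2 edge: gttttagtcattgtgTTATGTTTTCGGCGG

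On the standard mouse reference, Salmon gave most Iglc2 reads to this longer transcript in every mouse. The transcript with the constant exon alone received 1257, 1784 and 1583 reads in wildtype mice, 230, 415 and 183 in Eµ-MTCP1 mice and, for Eµ-TCL1 mice, 602, 259 and 16. That was 5.32, 8.58 and 6.12% of Iglc2 reads in wildtype mice, 1.48, 1.48 and 1.13% in Eµ-MTCP1 mice and, for Eµ-TCL1 mice, 2.05, 0.828 and 0.0717%, so all 6 leukemias lay below the wildtype mice. Reads across the joint of Iglj2 and Iglc2 fit the longer transcript whether or not the gene was rearranged, so this split is an estimate of Salmon and not a count of rearranged RNA. It was noticed after the values were seen, and no test was made on it.

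Among lambda constant reads, the share of Iglc1 was lower in Eµ-TCL1. It was 29.6, 30.5 and 26.0% in wildtype mice, 17.4, 27.9 and 26.7% in Eµ-MTCP1 mice and, for Eµ-TCL1 mice, 14.6, 17.2 and 13.0%. All Eµ-TCL1 mice lay below all wildtype mice, by a mean of 13.7 percentage points, and below all Eµ-MTCP1 mice, although Eµ-MTCP1 mouse 1 at 17.4% was close to Eµ-TCL1 mouse 2 at 17.2% (exact permutation p = 0.1 in each case, the smallest possible). In the deposited gene count table the Eµ-TCL1 and Eµ-MTCP1 shares overlapped (exact permutation p = 0.2). Eµ-MTCP1 and wildtype overlapped, with a difference of -4.68 points (exact permutation p = 0.3), which was -1.38 without Eµ-MTCP1 mouse 1. Iglc3 took 26.0, 25.9 and 26.7% of lambda constant reads in wildtype mice, 32.1, 28.0 and 37.0% in Eµ-MTCP1 mice and, for Eµ-TCL1 mice, 35.0, 41.6 and 35.7%. Eµ-TCL1 mouse 2, in which Iglv1 was highest, also held the largest Iglc3 share. Eµ-MTCP1 mouse 2, with the next highest Iglv1 level among leukemias, held the smallest Iglc3 share of them (28.0%). Within the reads of the near-identical pair Iglc2 and Iglc3, a split that leaves Iglc1 aside, Iglc3 held 36.1 to 37.2% in wildtype mice and 38.8 to 50.4% in leukemias. With both leukemias together this share was 6.65 points higher. It too was chosen after its values were seen and has no test. Its difference from wildtype was 5.95 points in Eµ-MTCP1 (2.09 without Eµ-MTCP1 mouse 3) and 7.35 in Eµ-TCL1 (4.25 without Eµ-TCL1 mouse 2).

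Among lambda variable reads, the share of Iglv2 was lower in all 6 leukemias. Iglv1 made up 62.6, 64.2 and 60.6% in wildtype mice, 74.8, 89.8 and 71.2% in Eµ-MTCP1 mice and, for Eµ-TCL1 mice, 57.2, 97.3 and 85.3%. Every Eµ-MTCP1 mouse exceeded every wildtype mouse, by a mean of 16.1 points (exact permutation p = 0.1), whereas Eµ-TCL1 mouse 1 lay below them (difference of the group 17.5 points, exact permutation p = 0.4). The Eµ-MTCP1 difference was 10.5 points without Eµ-MTCP1 mouse 2, and the Eµ-TCL1 difference was 28.8 without Eµ-TCL1 mouse 1 and 8.81 without Eµ-TCL1 mouse 2. The 95% Wilson interval was 97.0 to 97.6% for Eµ-TCL1 mouse 2, with 9864 lambda variable reads, and 69.9 to 79.1% for Eµ-MTCP1 mouse 1, with 341. Iglv2 held 28.0, 19.9 and 29.5% of lambda variable reads in wildtype mice, and between 0.243 and 3.18% in leukemias. Per Iglv2 read there were 2.23, 3.22 and 2.05 Iglv1 reads in wildtype mice, 85.0, 28.2 and 38.9 in Eµ-MTCP1 mice and, for Eµ-TCL1 mice, 41.9, 400 and 56.3. The ratio of Iglv1 to Iglv3 reads showed no such order, at 4.05 to 6.70 in wildtype mice and 1.38 to 39.7 in leukemias.

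**Figure D5:**
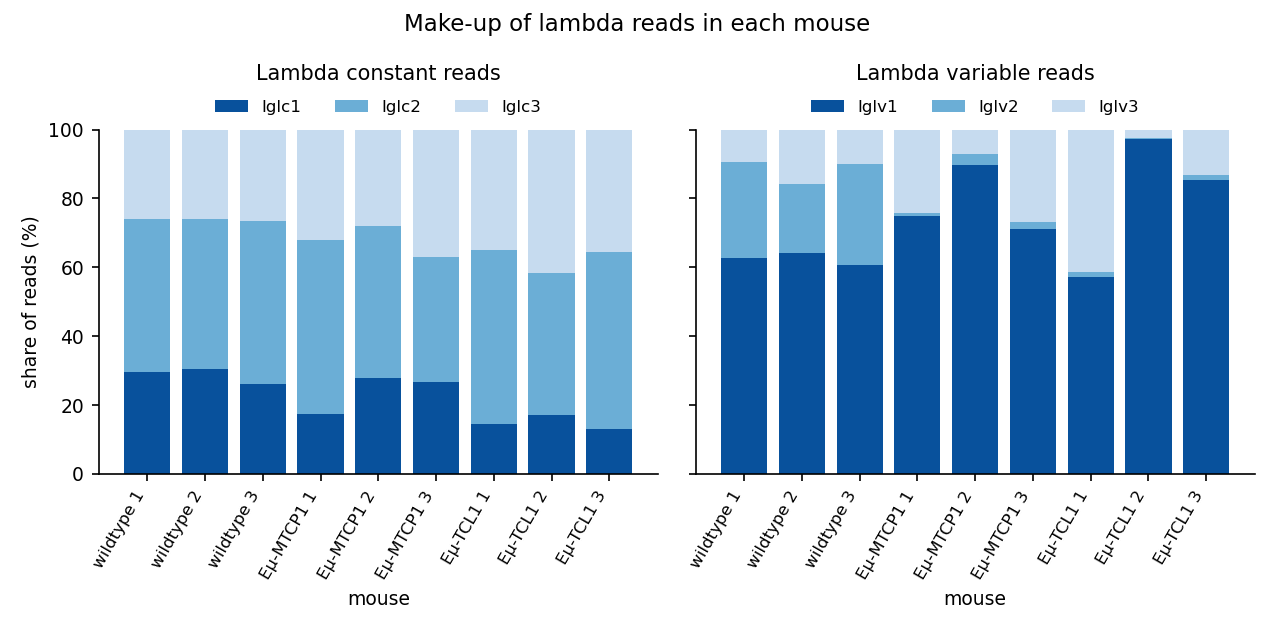
Share (%) of Iglc1, Iglc2 and Iglc3 among lambda constant reads (left) and of Iglv1, Iglv2 and Iglv3 among lambda variable reads (right) in each mouse; each bar adds up to all such reads of that mouse. Iglv2 holds 19.9 to 29.5% in wildtype mice and at most 3.18% in leukemias, and Iglv1 reaches 97.3% in Eµ-TCL1 mouse 2.

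In each leukemia most kappa variable reads came from 1 segment, which held 74.1, 97.3 and 97.5% of Igkv reads in Eµ-MTCP1 mice and, for Eµ-TCL1 mice, 93.3, 68.1 and 91.9%, compared with 7.51 to 12.4% in wildtype mice. Eµ-TCL1 mouse 2, with the highest lambda variable reads among leukemias, had the lowest of these leukemic shares. Reads of all other Igkv segments numbered 69605, 64735 and 61121 in wildtype mice, 9657, 6921 and 2576 in Eµ-MTCP1 mice and, for Eµ-TCL1 mice, 6165, 10264 and 8169. Kappa reads outside the leading segment were thus fewer in all 6 leukemias than in any wildtype mouse, as lambda variable reads were. The segment left out was picked in each mouse by its own reads. It held a larger share in leukemias, so the choice itself lowers what is left there. Per lambda variable read, 6.28, 5.73 and 5.31 such kappa reads were present in wildtype mice, 28.3, 0.953 and 1.52 in Eµ-MTCP1 mice and, for Eµ-TCL1 mice, 8.42, 1.04 and 3.54. Leukemias lay on both sides of the wildtype values, with log2 differences of -0.74 in Eµ-MTCP1 and -0.88 in Eµ-TCL1 (exact permutation p = 0.7 and 0.4). Without Eµ-MTCP1 mouse 1, 2 or 3 the Eµ-MTCP1 difference was -2.26, 0.19 or -0.15, and without Eµ-TCL1 mouse 1 or 2 the Eµ-TCL1 difference was -1.59 or -0.08. When the 2 leading Igkv segments of each mouse were left out, the difference of both leukemias together from wildtype changed from -0.81 to -2.10 (exact permutation p = 0.476 and 0.0238, the latter 0.0952 after adjustment). Neither leukemia then overlapped wildtype, at differences of -2.14 in Eµ-MTCP1 and -2.06 in Eµ-TCL1. These segments too were picked by their own reads. With only the leading segment left out, the difference of both leukemias together was -0.48 without Eµ-TCL1 mouse 2, -0.45 without Eµ-MTCP1 mouse 2 and -1.43 without Eµ-MTCP1 mouse 1 (exact permutation p = 0.679, 0.679 and 0.143).

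Other genes around the light chain system were examined as 4 lists. Of 10 other light chain locus genes only Iglc4, a lambda constant gene with few reads, passed the filter on low counts, and it was not called in either leukemia. Of 7 genes of the surrogate light chain, its partners and V(D)J recombination, 2 passed the filter, and the recombinase genes Rag1 and Rag2 had no reads in any library. Vpreb3, which belongs to the pre-B cell receptor family, was at 83.2, 46.4 and 60.8 CPM in wildtype mice, 3.46, 15.5 and 5.74 CPM in Eµ-MTCP1 mice, and 5.74, 40.6 and 9.26 CPM in Eµ-TCL1 mice. It fell by 2.93 ± 0.74 (SE) on the log2 scale in Eµ-MTCP1 (edgeR adjusted p = 0.0335), and its difference of -1.77 ± 0.70 in Eµ-TCL1 missed the threshold (edgeR adjusted p = 0.148). The Eµ-MTCP1 call was lost without Eµ-MTCP1 mouse 1 or 3 or any 1 wildtype mouse, at edgeR adjusted p-values of 0.0621 to 0.119. Its levels in leukemias were highest in the same 2 mice in which Iglv1 was highest.

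Of 18 factors that act on light chain promoters and enhancers, all were tested, and in each leukemia 2 were called higher and 1 lower. Among all genes, 9.48% were called in Eµ-MTCP1 and 9.2% in Eµ-TCL1 (3.99 and 4.13% lower). DESeq2 called 6 and 7 of the 18, and also more of all genes (1624 and 1662 of 12613). With both leukemias together against wildtype, 13.1% of all genes were called (6.16% lower). Of the 18 factors, 2 were called higher there (Tcf4 and Pou2f1) and 5 lower (Ebf1, Foxo1, Irf8, Mef2c and Rel). The count of 7 was 2 without wildtype mouse 2, 3 without Eµ-MTCP1 mouse 3, and 4 without wildtype mouse 1 or 3. Tcf4 and Pou2f1 were called in each of these. The median log2 fold change of the 18 factors was 0.24 in Eµ-MTCP1 and 0.06 in Eµ-TCL1, compared with -0.02 and -0.01 over all genes. The Eµ-MTCP1 median was 0.07 without wildtype mouse 3, 0.08 on the standard reference, 0.11 from the gene count table and -0.0018 with library size alone. That of Eµ-TCL1 was -0.15 without wildtype mouse 3, -0.09 without Eµ-TCL1 mouse 3, 0.02 without wildtype mouse 2, 0.18 without wildtype mouse 1, and -0.08 with library size alone, so it had no stable sign. Tcf4, an E-box binding factor, rose from 187, 144 and 127 CPM in wildtype mice to 393, 357 and 390 CPM in Eµ-MTCP1 mice and 367, 248 and 336 CPM in Eµ-TCL1 mice. Its log2 fold changes were 1.32 ± 0.21 (SE) and 1.05 ± 0.21 (edgeR adjusted p = 0.0039 and 0.012). Pou2f1, which binds the octamer motif of immunoglobulin promoters, rose by 1.02 ± 0.17 and 0.97 ± 0.17 on the log2 scale (edgeR adjusted p = 0.00504 and 0.00651). Its range was 54.9 to 67.8 CPM in wildtype mice and 111 to 143 CPM in leukemias, without overlap. Ebf1, a factor of B-lineage commitment, fell by 0.87 ± 0.18 in Eµ-TCL1 (edgeR adjusted p = 0.0139) and was at -0.59 ± 0.18 in Eµ-MTCP1 (edgeR adjusted p = 0.0666). Rel, an NF-kappaB subunit, fell by 1.19 ± 0.31 in Eµ-MTCP1 (edgeR adjusted p = 0.0374) and was at -0.74 ± 0.31 in Eµ-TCL1 (edgeR adjusted p = 0.164). The other 3 were called with both leukemias together and in neither alone by edgeR. Irf8, which binds light chain enhancers with PU.1, fell by 1.5 ± 0.38, Foxo1, a forkhead factor of B-cell development, fell by 0.997 ± 0.275, and Mef2c, a MADS-box factor, fell by 0.78 ± 0.22 (edgeR adjusted p = 0.0269, 0.0384 and 0.0401). None of these combined calls held in every fit that left out 1 library. Irf8 was lost without Eµ-MTCP1 mouse 3 or any 1 wildtype mouse (edgeR adjusted p = 0.0603 to 0.102), Foxo1 in 6 of 9 such fits (highest edgeR adjusted p = 0.179) and Mef2c in 7 of 9 (highest edgeR adjusted p = 0.157). The combined call of Ebf1 was lost without wildtype mouse 2, and that of Rel in 5 of 9 fits. Some of the calls within 1 leukemia also rested on single libraries. The Tcf4 call in Eµ-TCL1 was lost without wildtype mouse 2 or 3 (edgeR adjusted p = 0.06 and 0.059). That of Ebf1 was lost without wildtype mouse 2 or Eµ-TCL1 mouse 1 or 3 (edgeR adjusted p = 0.0539, 0.0562 and 0.0536). That of Rel was lost without wildtype mouse 2 or 3 or Eµ-MTCP1 mouse 1 or 3 (edgeR adjusted p = 0.0751, 0.134, 0.0988 and 0.131).

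Of Ighm, Ighd, Cd79a and Cd79b, which form the B cell receptor with the light chain, only Ighd was called by edgeR in either leukemia. Ighd, the constant gene of IgD, was at 932, 827 and 1078 CPM in wildtype mice, 66.3, 198 and 126 CPM in Eµ-MTCP1 mice, and 48.1, 126 and 82.9 CPM in Eµ-TCL1 mice. It fell by 2.86 ± 0.43 (SE) and 3.46 ± 0.45 on the log2 scale (edgeR adjusted p = 0.00269 and 0.00107). Over the 41 genes of the 4 lists, 27 were tested. Of these, 5 were called in Eµ-MTCP1, 4 in Eµ-TCL1 and 9 with both together (2 higher and 7 lower). Among all 11165 genes tested, 9.48, 9.2 and 13.1% were called in these comparisons. Between the leukemias 0 of the 27 and 0.0448% of all genes were called. There 1 of the 27 had an unadjusted p under 0.05 in edgeR, and DESeq2 and limma also called 0.

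The genes outside the immunoglobulin loci whose log2 CPM followed most closely that of the summed lambda constant genes over the 9 libraries were Zfp865, Ghdc, Ccdc114, Hist1h2bc and Pcnx, with Pearson r of 0.94, 0.93, 0.91, 0.90 and 0.90. For Igkc they were Tnfrsf17 (r = 0.97), Eaf2 (0.97), Sdc1 (0.95), Supt7l (0.91) and Herc1 (0.91). Tnfrsf17 and Sdc1 encode surface proteins of plasma cells and belong to the plasma-cell markers given beside Igkc. These are the highest of 8960 genes searched, with each library contributing to both sides, and serve as a description.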

How the data were processed

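RNA-sequencing of splenic B cells was used, with 1 library for each of 9 mice grouped by the deposited labels. Kits of SMARTer, Nextera XT and TruSeq stranded type are all named in the labels. The authors ran Salmon 1.0.0 to obtain estimated counts and TPM values for each transcript, once on a standard mouse reference and once on coding sequences with human sequences added; the latter were used here. Counts per gene were also deposited (HISAT2 2.0.6 and featureCounts are named per the labels), as were log2 expression values made by the authors with DESeq2. Fold change and p-value columns of the authors' own comparisons were not used, nor was the CLEAR table, which holds 0 of the 7 genes. In the files, 0 library columns were left unmapped. The build named is GRCm38.p4.

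Transcript identifiers were matched to genes in GENCODE M21. On the reference used, 442 mouse transcripts had no match (at most 0.291% of reads) and were left out, and 17 human transcripts were kept apart. Summed counts were rounded, filtered by filterByExpr, scaled by TMM and compared in edgeR 4.0.16 (quasi-likelihood test, under R 4.3.3). All 9 libraries entered a single fit, with Benjamini-Hochberg adjustment over 11165 genes. The standard error is the log2 fold change divided by the square root of F. Ratios had 0.5 reads added on the log2 scale and were compared by two-sided exact permutation of group means (SciPy), adjusted over 4 comparisons. Named genes were the 7 light chain genes, called genes of 4 lists (at most 6 each), and the 5 genes of at least 5 mean CPM most correlated with lambda constant or Igkc levels (prior count 2). Other listed genes enter by counts or ranges only, and 1 of them is not reported here. Members and lists were chosen with earlier results of these data known. Alternatives used DESeq2 1.42.0, limma 3.58.1, other scalings, references and units, and left out each library. The fits were tested on simulated data.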

Additional observations from a re-analysis of the deposited data

How the results depend on the processing

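No paired analysis was possible because the labels give no replicate numbers. Leaving out each library, the log2 kappa to lambda ratio over constant genes in Eµ-TCL1 against wildtype ranged from -0.70 to 0.74 (0.74 without Eµ-TCL1 mouse 2), and was 0.25 over all reads of each locus. The ratio over variable segments ranged from -2.38 to 0.25 between the leukemias and from 2.33 to 3.39 with both together. The Iglv1 share ranged from -7.31 to 12.7 points and from 13.2 to 21.2. The non-leading kappa to lambda ratio ranged from -2.26 to 0.19 in Eµ-MTCP1 against wildtype and from -1.06 to 1.38 between leukemias, where it was 0.18 on the standard reference and 0.076 without the 2 leading segments; with both leukemias it was then -2.10. Between leukemias, the constant to variable ratio ranged from -1.27 to 0.52 for lambda and from -0.029 to 0.15 for kappa (-0.021 to 0.14 in Eµ-MTCP1 against wildtype), and the Iglc3 share from -1.70 to 5.26 points. By TPM the Iglc1 share was -9.28 points (exact permutation p = 0.0476, adjusted p = 0.133) with both leukemias, and the groups overlapped.

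Of the 7 genes, 0 to 2 were called in Eµ-MTCP1, 1 to 2 in Eµ-TCL1 and 1 to 2 in both together when libraries were left out; 2 in Eµ-MTCP1 by DESeq2, library size alone, no filter or limma (added after seeing the data), Iglv3 being the other, and 1 in Eµ-TCL1 from the gene count table. The counts fell to 0 without Eµ-MTCP1 mouse 3 in Eµ-MTCP1, to 1 without any 1 of the 6 mice in Eµ-TCL1, and to 1 without wildtype mouse 2 in both. Listed genes called were 3 to 6 (3 without Eµ-MTCP1 mouse 3 or wildtype mouse 2 or 3), 2 to 8 (2 without wildtype mouse 2, 8 without Eµ-TCL1 mouse 2) and 4 to 9 (4 without Eµ-MTCP1 mouse 3 or wildtype mouse 2); DESeq2 called 9 and 10, and library size alone 8 in Eµ-MTCP1. Over all genes DESeq2 called 1624, 1662 and 73 against 1059, 1027 and 5 by edgeR. Library size alone took the median of all genes from -0.02 to -0.26 in Eµ-MTCP1 and from -0.01 to -0.15 in Eµ-TCL1, and gave 391 higher and 730 lower genes in Eµ-MTCP1 (613 and 446 with TMM), and 446 and 591 in Eµ-TCL1 (566 and 461).

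Some fold changes turned sign. Iglc2 in Eµ-MTCP1 was -0.019 from gene counts, -0.0020 with DESeq2 size factors, -0.0029 by DESeq2, -0.21 with library size alone, -0.042 by limma and -0.017 from 6 libraries, and ranged from -0.25 to 0.21 when libraries were left out; with both leukemias it was -0.054 with library size alone and ranged from -0.036 to 0.32. Ranges were -0.47 to 0.18 for Iglc1 in Eµ-MTCP1, -0.10 to 0.70 for Igkc in Eµ-TCL1, and -1.22 to 2.08 (Iglv1) and -2.64 to 0.13 (Iglv2) between leukemias. The Iglv2 value between leukemias was not near 0, at -2.07 in the main fit, and turned sign only without Eµ-MTCP1 mouse 2. The cause of these changes was not tested. Iglv2 kept its direction against wildtype under every alternative run.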

Other observations

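In the deposited gene count table, which counts reads aligned to the genome and served above only as an alternative, J segments of both loci received few reads. Iglj1, the J segment beside Iglc1, had 109 to 155 reads in wildtype mice, 116 to 167 in Eµ-MTCP1 and, for Eµ-TCL1, 105 to 210. Igkj2, a kappa J segment, had 62 to 100 reads in wildtype mice, whereas its counts were 4 to 57 in Eµ-MTCP1 and, for Eµ-TCL1, 19 to 52, so all 6 leukemias lay below the wildtype mice. Igkj1 showed the same order, with 85 to 313, 0 to 76 and 58 to 77 reads in wildtype, Eµ-MTCP1 and Eµ-TCL1 mice, while the other kappa J segments overlapped: Igkj3 had 18 to 81, 0 to 13 and 11 to 36 reads, Igkj4 had 69 to 94, 9 to 72 and 25 to 99, and Igkj5 had 60 to 137, 27 to 72 and 59 to 91. Iglj3 and Iglj3p overlapped too, at 44 to 50, 16 to 49 and 25 to 92 reads for Iglj3 and 50 to 68, 59 to 86 and 53 to 162 for Iglj3p. Iglj2, which lies inside an exon of Iglc2, was listed at 0 in all 9 libraries. These counts were not tested.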
